A study of Mus musculus with 12 samples.

Results

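This section concerns 10 genes of the liver's defence against oxidants and electrophiles: the sensor pair Nfe2l2 and Keap1, the target genes Nqo1, Gclc, Gclm, Txnrd1, Srxn1, Hmox1 and Ephx1, and the mitochondrial gene Nnt. They were taken by name from the gene column of 12 2-colour oligonucleotide arrays, on which they had 18 of 41174 probes, and all 18 probes and all 10 genes passed the filter on dim probes that left 14900 genes to test. NRF2, the transcription factor encoded by Nfe2l2, is held in the cytoplasm and marked for degradation by KEAP1. When electrophiles or oxidants modify KEAP1, NRF2 accumulates, pairs with small MAF proteins and binds antioxidant response elements upstream of genes for quinone reduction, glutathione synthesis, thioredoxin recycling and haem breakdown. Nnt encodes the transhydrogenase of the inner mitochondrial membrane, which uses the proton gradient to make NADPH, the reductant on which glutathione and thioredoxin recycling depend. The C57BL/6J substrain is known for a deletion within Nnt, and the sources used here do not say whether any of the probes lies inside the deleted part.

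The arrays measured liver RNA of male mice weaned at 3 weeks onto a diet and killed at 14 weeks of age, each array carrying RNA pooled from 3 samples. The 4 groups of 3 arrays were Cyp1b1 null mice on 60% fat (high fat), Cyp1b1 null mice on 10% fat (low fat), wild-type mice labelled C57BL6/J on 60% fat, and wild-type C57BL6/J mice on 10% fat. Sample RNA carried Cy3 and was hybridised against 1 common reference in Cy5, pooled RNA of wild-type livers on low fat, with no dye swap. No source used here gives the strain background of the null mice, the form of the null allele or whether the 3 pooled samples were 3 animals, so p-values measure only the spread between these pools. All values below are either levels, meaning the log2 ratio of sample over the reference pool after background correction and loess within the array, or differences between group means of those levels.

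The targeted gene, Cyp1b1, gave levels of 0.65, 1.68 and 1.23 on the null high-fat arrays and 1.68, 1.58 and 1.59 on the null low-fat arrays. On the same probe (A_51_P255456) the levels were -0.69, -0.13 and -0.88 on wild-type high-fat arrays and 0.15, -0.85 and -1.11 on wild-type low-fat arrays. The signal was thus higher on every array labelled null than on every wild-type array, and where the probe lies relative to the deleted part is not given, so it does not check the labels; groups are named below as labelled. Between 18363 and 23428 probes per array were well above background in the sample channel. After correction, the median log2 signal of that channel was 8.98 on wild-type high-fat array 2 and 8.53 on null high-fat array 1. On the other arrays it ran from 6.10 to 6.58. What this does to the ratios of dim probes on those high-fat arrays was not tested. The tissue label reads hepatocytes, and all 11 hepatocyte markers with a probe were well above background on all 12 arrays, but so were all 16 Kupffer cell and macrophage markers, 9 of 10 endothelial, 8 of 10 stellate and 8 of 10 bile duct markers. In such bulk RNA, fewer cells of a type and less RNA per cell cannot be told apart. The arrays were read on 3 dates, here called scans. Scan 1 held slides 1 and 2, scan 2 held slide 3 and scan 3 held slide 4, so scans 2 and 3 were each a single slide. Arrays of different groups read in the same scan deviated together from their group means (median r = 0.38 over 20 pairs, against -0.18 over 34 pairs from different scans). Values within scans therefore stand beside the comparisons. Scan 3 held 2 wild-type arrays and no null array.

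The probes of the genes on which the results turn are shown here, each a 60-base designed oligonucleotide written 5′ to 3′ as in the array files. Nnt had 4 probes, which differ in brightness and, below, in how far they separate the groups.
Nnt A_52_P395228: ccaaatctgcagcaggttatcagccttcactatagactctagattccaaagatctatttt
Nnt A_51_P113399: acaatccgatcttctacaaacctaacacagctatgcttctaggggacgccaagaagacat
Nnt A_51_P113395: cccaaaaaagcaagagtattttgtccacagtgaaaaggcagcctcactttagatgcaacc
Nnt A_52_P593890: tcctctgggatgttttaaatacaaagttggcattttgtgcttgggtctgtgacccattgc
Nqo1 had 1 probe, and of the 3 for Nfe2l2 the one used for the gene, brightest over both colours, is shown.
Nqo1 A_51_P424338: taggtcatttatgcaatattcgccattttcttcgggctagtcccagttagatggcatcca
Nfe2l2 A_51_P411271: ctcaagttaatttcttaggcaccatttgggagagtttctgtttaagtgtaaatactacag
Srxn1 had 3 probes, of which the last pair share 13 bases, printed in capitals, so those readings come from adjoining stretches of 1 transcript.
Srxn1 A_52_P297032: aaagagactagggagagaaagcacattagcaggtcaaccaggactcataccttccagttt
Srxn1 A_52_P593200: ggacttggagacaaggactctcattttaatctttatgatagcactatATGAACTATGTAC
Srxn1 A_51_P330125: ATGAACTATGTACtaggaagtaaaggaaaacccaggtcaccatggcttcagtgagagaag

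Promoters of 7 of the 10 genes were found in the RefSeq promoter table (build GRCm38.p6, 250 bases before to 50 after each start, 9 windows in all). The core of the antioxidant response element, TGACNNNGC, searched on both strands, was found in 4 of these 9 windows, and in 12.4% of all 32851 promoters in the table. The matches, in capitals with 10 bases on either side, stood in Nfe2l2 itself, Gclm, Txnrd1 and Srxn1.
Nfe2l2, chr2:75704885-75704913, minus strand, motif on the gene's strand: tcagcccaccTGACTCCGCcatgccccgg
Gclm, chr3:122245413-122245441, plus strand, motif on the opposite strand: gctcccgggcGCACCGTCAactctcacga
Txnrd1, chr10:82859104-82859132, plus strand, motif on the opposite strand: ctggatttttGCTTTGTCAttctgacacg
Srxn1, chr2:152105542-152105570, plus strand, motif on the opposite strand: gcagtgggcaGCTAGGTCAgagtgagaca
A match is a description of the letters in this window and no evidence of binding.

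**Figure D1:**
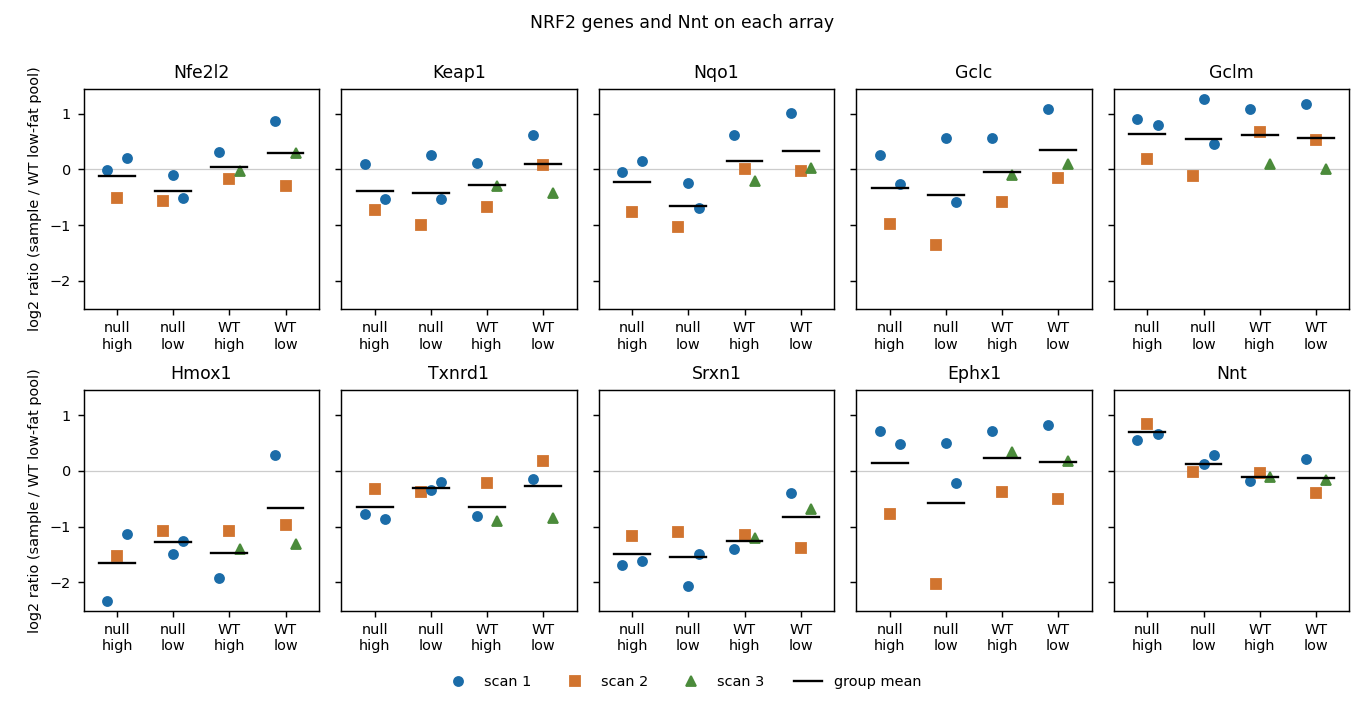
Level of each of the 10 genes on each array (log2 ratio of sample over the wild-type low-fat pool, vertical axis), with the 4 groups along the horizontal axis, the scan as the symbol and the group mean as a bar. Nnt sits between 0.56 and 0.85 on the null high-fat arrays, above all other arrays, and wild-type low-fat array 1 is the highest array for 7 of the 10 genes.

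On low fat, 9 of the 10 genes were lower in null than in wild-type liver and only Nnt was higher, with a median difference of -0.65 on the log2 scale, against 50.9% of all genes lower and a median of -0.0055 over all genes. None of the 10 passed limma's threshold (Benjamini-Hochberg adjusted p under 0.05 over 14900 genes), which 0.0201% of genes passed, and their adjusted p ran from 0.563 to 0.995. At an unadjusted p under 0.05, 3 members were lower (Nqo1, Srxn1 and Nfe2l2) and none higher, against 3.77% of all genes lower and 7.2% either way. Nqo1 was the 1 member whose groups did not overlap, against 9.32% of all genes, or 4.51% with null liver lower. With median centring of each array in place of loess, 6 of 10 were lower with a median of -0.095, while all genes shifted to a median of 0.33 with 18.1% lower.

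Markers of other liver cells moved with these genes on low fat. Of the Kupffer cell and macrophage markers, 14 of 16 were lower in null liver (median -0.32), as were 8 of 8 tested bile duct markers (median -0.23) and 8 of 10 stellate cell markers (median -0.49), while 8 of 11 hepatocyte markers were higher (median 0.34). Endothelial markers were lower in 6 of 10 (median -0.074), adipocyte markers in 3 of 3 (median -0.47) and red cell markers in 2 of 3 (median -0.42). No marker passed the threshold. When wild-type low-fat array 1 was left out, 8 of 16 Kupffer cell, 5 of 8 bile duct and 6 of 10 stellate cell markers were lower. The part of these cells in the values of the 10 genes was not tested.

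Nfe2l2 stood at -0.58, -0.10 and -0.52 on the null low-fat arrays, against 0.87, -0.30 and 0.30 on the wild-type low-fat arrays. The groups overlapped through wild-type array 2, and wild-type array 1 was the highest of all 12. The difference was -0.69 (SE 0.29, unadjusted p = 0.0377, adjusted p = 0.665 in limma). Its second bright probe, A_52_P396436, differed by -0.55 (SE 0.47), and the third, A_52_P523835, a dim one with a median signal of 108, by -0.11 (SE 0.15). Within scan 1 the Nfe2l2 difference was -1.18, and within scan 2 it was -0.28.

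Keap1, the adaptor that hands NRF2 to a ubiquitin ligase, gave -1.001, 0.26 and -0.53 on null low-fat arrays and 0.62, 0.08 and -0.43 on wild-type low-fat arrays. The groups overlapped, with a difference of -0.52 (SE 0.37, adjusted p = 0.839). Within scan 1 it was -0.76, where the genotypes lay on different slides, and within scan 2 it was -1.08. Fitted by limma over all measured probes with scan as a block, Keap1 differed by -0.76 (SE 0.27, adjusted p = 0.305). On high fat the Keap1 difference was -0.33 within scan 1 and -0.043 within scan 2.

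Nqo1, the NRF2 target that reduces quinones to hydroquinones, gave the widest separation among the NRF2 genes. Its levels were -1.04, -0.24 and -0.69 on null low-fat arrays, against 1.01, -0.03 and 0.02 on wild-type low-fat arrays. Every null array lay below every wild-type array. The difference was -0.99 (95% interval -1.76 to -0.22, SE 0.35), a ratio of 0.504, with an unadjusted p of 0.0162 and an adjusted p of 0.563. On high fat the levels were -0.06, -0.76 and 0.15 in null and 0.62, 0.01 and -0.21 in wild-type liver, which overlapped, with a difference of -0.36 (SE 0.35, adjusted p = 1.00).

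The Nqo1 difference was larger when arrays were compared within scans. It was -1.48 within scan 1 and -1.01 within scan 2 on low fat, and -0.57 and -0.77 on high fat. With scan as a block in the same model, Nqo1 differed by -1.28 (SE 0.17, adjusted p = 0.0491) on low fat, and by -0.97 (SE 0.13, adjusted p = 0.0157) as the mean of both diets, against -0.68 (SE 0.25, adjusted p = 0.448) without the block. Under the block 0.094% of genes passed on low fat and 0.644% as the mean of both diets. Leaving out each of the 12 arrays in turn under the block kept the adjusted p under 0.05 only without wild-type low-fat array 2, with a range of 0.0377 to 0.119 and differences of -1.40 to -1.14. For the mean of both diets it stayed under 0.05 in 9 of 12 such fits, with differences of -1.04 to -0.88, and was 0.0750, 0.0749 and 0.0752 without wild-type high-fat array 1, wild-type high-fat array 2 and null high-fat array 2. Within scan 1 the null and wild-type low-fat arrays lay on different slides, so slide and genotype cannot be told apart there, and with slide as a block the low-fat difference of Nqo1 was -1.13 (adjusted p = 0.395). The Nqo1 probe was dim: its sample signal ran from 62.5 to 321 over the 12 arrays, near the added offset of 50. Its corrected log2 sample signal had an SD of 0.98 in wild-type high-fat and 0.74 in null high-fat liver. On low fat the SD was 0.15 in wild-type and 0.21 in null liver. In the authors' deposited table, made from the scanner's own ratios, Nqo1 is listed at -2.67 on low fat and -0.961 on high fat. With the scanner's processed signals in limma, Nqo1 differed by -1.82 as the mean of both diets (adjusted p = 0.115).

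Gclc encodes the catalytic subunit of glutamate-cysteine ligase, the rate-limiting enzyme of glutathione synthesis, and Gclm its modifier subunit. Gclc gave -1.35, 0.56 and -0.59 on null low-fat arrays, against 1.09, -0.16 and 0.10 on wild-type low-fat arrays. The null group held both the lowest array of all and a value above 2 of the wild-type arrays, and the difference was -0.80 (SE 0.51, adjusted p = 0.806). Within scans it was -1.10 and -1.19 on low fat and -0.56 and -0.41 on high fat, and with scan as a block the mean of both diets was -0.82 (SE 0.21, adjusted p = 0.145). Gclm gave -0.11, 1.27 and 0.46 on null low-fat arrays and 1.17, 0.53 and 0.01 on wild-type low-fat arrays. The groups covered the same range, with a difference of -0.030 (95% interval -0.90 to 0.84). Within scans Gclm was lower too, at -0.30 and -0.64 on low fat and -0.24 and -0.48 on high fat. With scan as a block its mean of both diets was -0.40. The data do not settle whether the subunits differ in response.

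Txnrd1, the cytosolic thioredoxin reductase, was the other member near 0. It gave -0.37, -0.34 and -0.20 on null low-fat arrays, all inside the wild-type low-fat range of -0.84 to 0.18. The difference was -0.037 (95% interval -0.63 to 0.55) over all arrays, -0.13 within scan 1 and -0.55 within scan 2. Srxn1, the sulfiredoxin that repairs overoxidised peroxiredoxins, gave -1.10, -2.06 and -1.49 on null low-fat arrays, against -0.39, -1.39 and -0.68 on wild-type low-fat arrays. The groups overlapped by 1 array each, and the difference was -0.73 (SE 0.29, unadjusted p = 0.0285, adjusted p = 0.623). The Srxn1 difference was not the same in the scans, at -1.38 within scan 1 and 0.29 within scan 2, and the dimmer probes A_52_P593200 and A_51_P330125 gave -0.38 (SE 0.27) and -0.25 (SE 0.24).

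Hmox1, the inducible haem oxygenase that Kupffer cells also express as they clear red cells, gave -1.07, -1.48 and -1.26 on null low-fat arrays, against 0.28, -0.97 and -1.31 on wild-type low-fat arrays. Wild-type array 1 was the highest of all 12 arrays by a wide margin. The difference was -0.61 (SE 0.41, adjusted p = 0.827), and it was -1.66 within scan 1 and -0.10 within scan 2. On that array the median level of the 16 Kupffer cell and macrophage markers was 0.13. The same median ran from -0.93 to -0.18 on null high-fat and -0.98 to -0.60 on null low-fat arrays. It ran from -1.18 to -0.29 on wild-type high-fat and -1.33 to 0.13 on wild-type low-fat arrays. The trait was not particular to Kupffer cells. Stellate cell (0.50), endothelial (0.37) and bile duct (0.14) markers also had their highest median of the 12 arrays on wild-type low-fat array 1. Hepatocyte (0.27), adipocyte (-0.24) and red cell (-0.053) markers did not. The part of any of these cells in the Hmox1 value was not tested. Ephx1, the microsomal epoxide hydrolase, gave -2.03, 0.50 and -0.21 on null low-fat arrays and 0.83, -0.50 and 0.17 on wild-type low-fat arrays. The groups overlapped, with a difference of -0.75 (SE 0.62, adjusted p = 0.866). Within scan 1 the Ephx1 difference was -0.68 and within scan 2 it was -1.52. Fitted by limma over all measured probes with scan as a block, it was -0.97 (SE 0.26, adjusted p = 0.208). The other Ephx1 probe, A_52_P416072, with a median signal of 3795, differed by only -0.13 (SE 0.37), or -0.23 (SE 0.35) with that block.

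Single arrays weighed heavily on these low-fat values. Wild-type low-fat array 1 was the highest of the 12 arrays for 7 of the 10 genes, where it was the highest for 17.4% of all genes, and null low-fat array 1 was the lowest for 6 of the 10, where it was the lowest for 11.4% of all genes. Without wild-type low-fat array 1, 7 of the 10 genes were lower in null liver on low fat, with a median of -0.32. Without null low-fat array 1, 8 of the 10 were lower with a median of -0.29. Ephx1 was then at -0.022, Gclc at -0.36 and Keap1 at -0.23. Without wild-type low-fat array 1, Hmox1 was at -0.13, Nfe2l2 at -0.40, Gclc at -0.43, Ephx1 at -0.42, Keap1 at -0.25, Nqo1 at -0.65 and Nnt at 0.41. Without null low-fat array 2 the differences were larger for Ephx1 (-1.29), Gclc (-1.31) and Keap1 (-0.86) and smaller for Srxn1 (-0.47), and without wild-type low-fat array 2 Nnt was at 0.11. Hmox1 was at -0.93 and Keap1 at -0.78 without wild-type low-fat array 3. Within scan 1, which holds null low-fat arrays 2 and 3 and wild-type low-fat array 1, 10 of the 10 were lower with a median of -0.93. Within scan 2, which holds null low-fat array 1 and wild-type low-fat array 2, 8 of the 10 were lower with a median of -0.59.

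**Figure D2:**
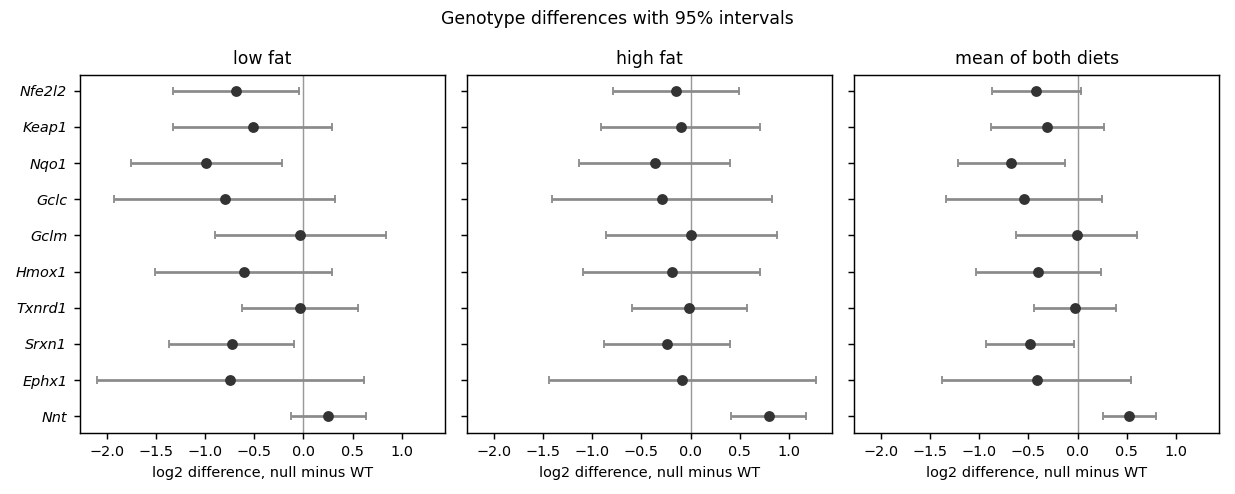
Difference in level between null and wild-type liver for each gene (points, log2 scale, horizontal axis) with 95% intervals from limma, on low fat, on high fat and as the mean of both diets. Nqo1 lies left of 0 in all 3 panels, Nnt lies right of 0, and Gclm and Txnrd1 lie within 0.04 of 0.

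On high fat, 8 of the 10 genes were lower and 2 higher in null liver, with a median of -0.12, against 49.4% of all genes lower and a median of 0.0024 over all genes. None passed the threshold in limma, which 0.0134% of genes passed. At an unadjusted p under 0.05 only Nnt differed, against 2.58% of all genes, and Nnt was also the only member whose groups did not overlap, against 7.75% of all genes, or 3.65% with null liver higher. Apart from Nnt, the differences ran from -0.36 for Nqo1 to 0.010 for Gclm. With median centring in place of loess, 8 of the 10 were higher with a median of 0.14, against 0.084 over all genes, so no direction is given for the NRF2 genes on high fat. Within scans, 8 of 10 were lower in scan 1 (median -0.23) and 9 of 10 in scan 2 (median -0.38).

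**Figure D3:**
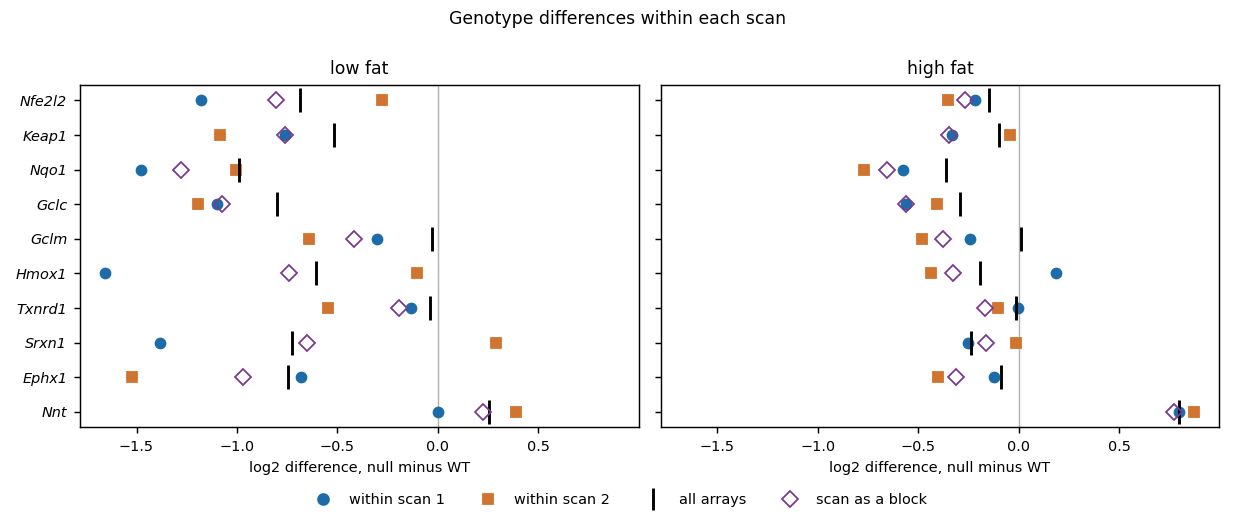
Null minus wild-type difference of each gene (log2 scale, horizontal axis) within scan 1, within scan 2, over all arrays and with scan as a block, on low fat and on high fat. Nfe2l2, Keap1, Nqo1, Gclc, Gclm, Txnrd1 and Ephx1 lie left of 0 in both scans on both diets, Txnrd1 only just within scan 1 on high fat. Hmox1 and Srxn1 lie far apart between the scans on low fat.

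Nnt was the member set furthest apart on high fat. Its brightest probe, A_52_P395228, gave 0.56, 0.85 and 0.67 on null high-fat arrays, against -0.19, -0.03 and -0.10 on wild-type high-fat arrays. Every null high-fat array lay above all 9 other arrays. The difference was 0.80 (95% interval 0.42 to 1.18, SE 0.17), a 1.74-fold higher ratio, and it ranked 32 of 14900 genes by p (unadjusted p = 0.000731), but the adjusted p was 0.341. On low fat the levels were -0.01, 0.12 and 0.30 in null and 0.21, -0.40 and -0.16 in wild-type liver, which overlapped, with a difference of 0.25 (SE 0.17, adjusted p = 0.833). The low-fat difference of Nnt was -0.00026 within scan 1 and 0.39 within scan 2.

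As the mean of both diets, Nnt was 0.52 higher in null liver (SE 0.12, unadjusted p = 0.00125, adjusted p = 0.157). Without wild-type low-fat array 1 it was 0.61 higher with an adjusted p of 0.0349, the one setting in which Nnt passed, where 0.758% of all genes passed, against 0.289% with all arrays. With median centring in place of loess Nnt was at 0.93 (adjusted p = 0.999), against 0.21 over all genes. The high-fat difference was 0.80 within scan 1 and 0.87 within scan 2, and 0.77 (SE 0.18, adjusted p = 0.359) with scan as a block. Over all ways of processing without leaving out an array, it ran from 0.44, with the mean of the 4 probes, to 1.06, with median centring in place of loess.

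The other Nnt probes separated the groups less. A_51_P113399 gave 0.74, 0.87 and 1.16 on null high-fat arrays, against 0.47, 0.00 and 0.06 on wild-type high-fat arrays. These did not overlap, but null low-fat array 2, at 1.40, was higher than all of them, and the high-fat difference was 0.75 (SE 0.30, adjusted p = 1.00 over all measured probes). A_51_P113395 gave 0.66 and 1.15 on 2 null high-fat arrays, with the spot of array 3 left out because the scanner marked it as non-uniform, against 0.80, 0.11 and 0.45 on wild-type high-fat arrays. The groups overlapped, with a difference of 0.45 (SE 0.31). In the authors' deposited table the same probe is listed at -0.455 on high fat, and that table equals the difference of the group means of the scanner's own ratios over all 3 arrays, the marked spot included. The last probe, A_52_P593890, was well above background on 8 of 12 arrays, with a median signal of 65.7, and differed by -0.11 (SE 0.14).

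**Figure D4:**
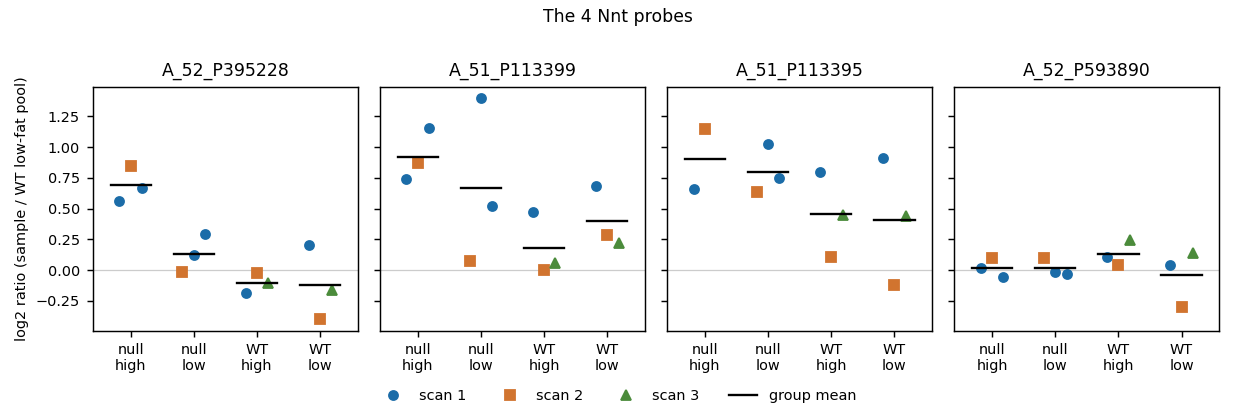
Level of each of the 4 Nnt probes (log2 ratio of sample over the wild-type low-fat pool, vertical axis) on each array, by group, with the scan as the symbol and the group mean as a bar. A_52_P395228 and A_51_P113399 separate the null from the wild-type high-fat arrays, A_51_P113395 does not, and A_52_P593890 stays within -0.30 and 0.25 on all arrays.

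Diet moved none of the 10 genes past the threshold in limma in either genotype (0.00671% of all genes passed in each). In wild-type liver, 7 of the 10 were lower on high fat, with a median of -0.31, against 48.8% of all genes and a median of 0.0065. None had an unadjusted p under 0.05, against 4.03% of all genes, and none was without overlap, against 7.25%. The largest was Hmox1, at -1.91, -1.08 and -1.40 on high fat against 0.28, -0.97 and -1.31 on low fat, a difference of -0.80 (SE 0.41, adjusted p = 1.00) that overlapped and was -2.19 within scan 1, -0.11 within scan 2 and -0.09 within scan 3. Without wild-type low-fat array 1, 5 of the 10 were lower, with a median of 0.01. Within scans, 10 of the 10 were lower in scan 1 (median -0.52), 4 in scan 2 (median 0.083) and 6 in scan 3 (median -0.070). Scan as a block pairs the wild-type arrays of the 2 diets, and 0 genes of all passed under it.

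In null liver, 8 of the 10 genes were higher on high fat, with a median of 0.11, against 54.5% of all genes and a median of 0.018. Nnt was the 1 member with an unadjusted p under 0.05, against 1.91% of all genes, and the 1 member without overlap, against 4.84%, or 2.3% with high fat higher. It was 0.56 higher (SE 0.17, unadjusted p = 0.00802, adjusted p = 1.00), while in wild-type liver it differed by 0.012 (95% interval -0.37 to 0.39) between the diets. Within scans the Nnt diet difference in null liver was 0.41 in scan 1 and 0.86 in scan 2. In wild-type liver it was -0.39, 0.37 and 0.057 in scans 1, 2 and 3, so 0.012 is a mean of opposed values. In null liver the other probes differed less, A_51_P113399 by 0.26 (SE 0.30), A_51_P113395 by 0.10 (SE 0.31) and A_52_P593890 by 0.0010 (SE 0.14). On A_52_P395228, the probe used, the 4 group means of Nnt were 0.69 ± 0.14 in null high-fat, 0.13 ± 0.15 in null low-fat, -0.11 ± 0.08 in wild-type high-fat and -0.12 ± 0.31 in wild-type low-fat liver (SD, n = 3 each). In that order the wild-type groups overlapped, and the lowest null low-fat array lay only just above the highest wild-type high-fat array. The null high-fat arrays stood clear of the rest on this probe only.

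The genotype differences on the 2 diets were compared in 1 interaction test per gene, high fat minus low fat. All 10 interactions were above 0, with a median of 0.50, against 51.9% of all genes above 0. Without wild-type low-fat array 1 it was 7 of 10 with a median of 0.20. These values rest on the probe used for each gene. The other Ephx1 probe, A_52_P416072, gave -0.22 (SE 0.52), and the dim Nfe2l2 probe, A_52_P523835, gave -0.12 (SE 0.21). With median centring in place of loess 8 of 10 were above 0 with a median of 0.18, against -0.21 over all genes. Other cells' markers moved the same way in this test: 14 of 16 Kupffer cell and macrophage markers were above 0 (median 0.58), 8 of 8 bile duct markers (median 0.28) and 7 of 10 stellate cell markers (median 0.51), against 3 of 11 hepatocyte markers (median -0.12), and their part was not tested. None of the 10 genes passed the threshold, which 0 of the 14900 genes did (limma), and at an unadjusted p under 0.05 Nnt was the 1 member, at 0.55 (SE 0.24, unadjusted p = 0.0475, adjusted p = 1.00), against 0.899% of all genes. The other Nnt probes gave 0.48 (SE 0.42) for A_51_P113399, 0.061 (SE 0.42) for A_51_P113395 and -0.17 (SE 0.20) for A_52_P593890. The diets' genotype effects on Nnt, and on the NRF2 genes, were therefore not shown to differ. Comparisons that share a group use the same arrays and are no separate evidence for each other.

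As the mean of both diets, 9 of the 10 genes were lower in null liver, with a median of -0.41, against 51.1% of all genes lower and a median of -0.0051. None passed the threshold in limma, which 0.289% of genes passed. At an unadjusted p under 0.05 the members were Nnt, higher, and Nqo1 and Srxn1, lower, against 8.38% of all genes. Nfe2l2, which differed by -0.42 (SE 0.21, adjusted p = 0.638), passed only when the sample channel was used alone, without the reference (adjusted p = 0.0488). With median centring in place of loess, 4 of the 10 were lower and the median was 0.016, against 21.9% of all genes lower and a median of 0.21.

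**Figure D5:**
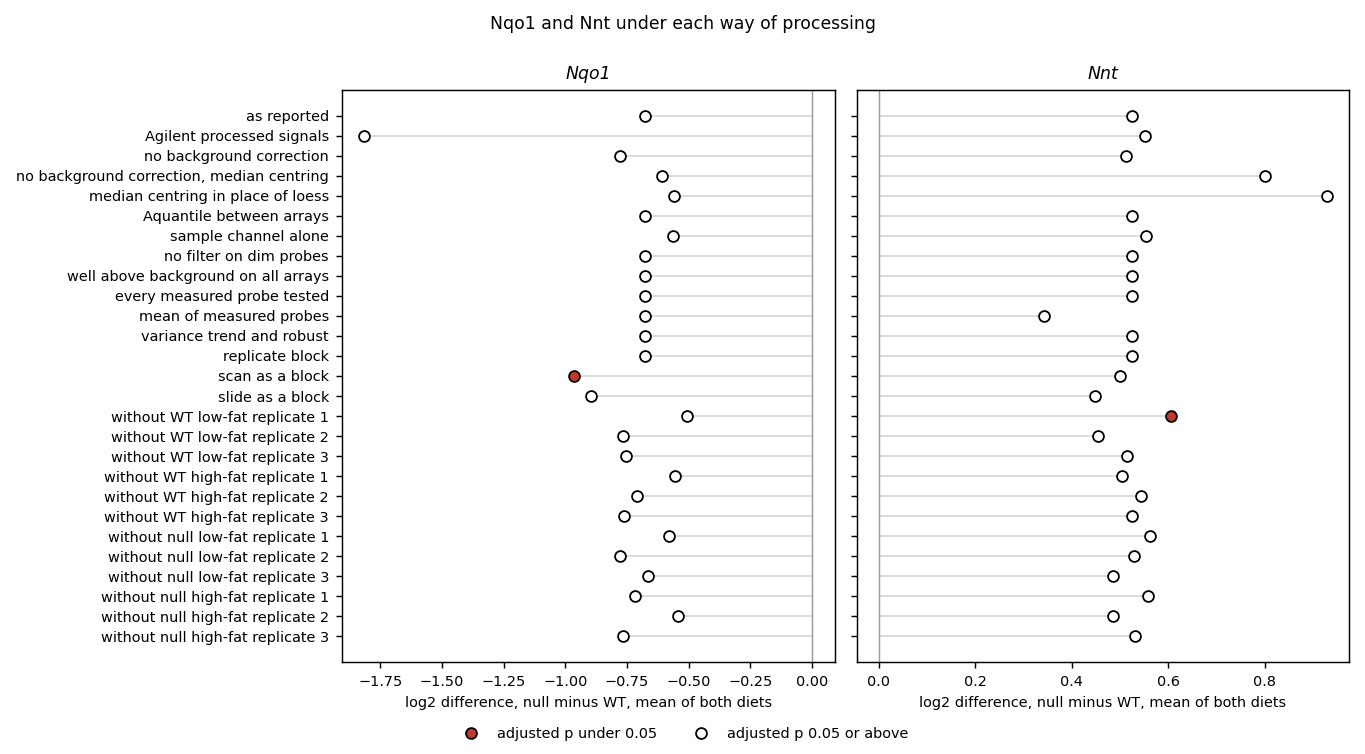
Null minus wild-type difference as the mean of both diets (log2 scale, horizontal axis) for Nqo1 and Nnt under each way of processing and without each array in turn, red where the adjusted p was under 0.05. Nqo1 stays below 0 and passes only with scan as a block, and Nnt stays above 0 and passes only without wild-type low-fat array 1.

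The NRF2 genes varied together across arrays to different degrees. Over the 12 arrays, which share the reference pool, Nfe2l2 and Nqo1 had r = 0.93, Keap1 and Gclc had r = 0.93, and Gclc and Ephx1 had r = 0.88. Srxn1 had r = 0.43 with Nfe2l2, -0.018 with Keap1 and -0.34 with Gclm, Hmox1 had 0.39 with Nfe2l2 and 0.16 with Gclc, and Txnrd1 had -0.31 with Nfe2l2 and 0.11 with Keap1. After each scan's mean was removed, r was 0.70 between Srxn1 and Nfe2l2, 0.58 between Hmox1 and Nfe2l2 and 0.52 between Txnrd1 and Keap1. The median over the 36 pairs of the 9 NRF2 genes was 0.41, or 0.58 after each scan's mean was removed. Nnt had a median r of -0.17 with the other 9 genes, and -0.39 after each scan's mean was removed. These are descriptions over arrays that also share scan and genotype. The r of pairs of other genes was not computed. Whether the NRF2 genes vary together more than other genes do is therefore not shown.

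The genes outside the 10 whose levels were most like a member's, by Pearson r over the 12 arrays among 12364 genes, were Skp2 (r = 0.88), Nucb2 (r = 0.88) and Selenbp1 (r = 0.84) for Nnt. For Nqo1 they were Slc5a6, Rtn4rl1 and Tmem30b, each at about 0.95. For Nfe2l2 they were Tax1bp3 (r = 0.95), Rtn4 (r = 0.95) and Eif4ebp1 (r = 0.95), and for Gclc they were Cd74 (r = 0.97), Nek7 (r = 0.97) and Ost4 (r = 0.97). Nek7 also stood among the 3 for Keap1 (r = 0.93).

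Of 43 other known NRF2 targets, 39 were tested. As the mean of both diets 33 of these were lower in null liver and 6 higher, with a median of -0.18, and 1 passed the threshold, against 0.289% of all genes. With median centring in place of loess 14 of 39 were lower with a median of 0.16, against 21.9% and 0.21 over all genes, and none passed. The gene that passed was Cyp2a5, the coumarin hydroxylase, which fell by 1.94 (SE 0.19, adjusted p = 0.00228) as the mean of both diets, by 2.25 (SE 0.27, adjusted p = 0.0249) on low fat, and did not pass on high fat, at -1.63 (SE 0.27, adjusted p = 0.0959). Cyp2a5 is also known to respond to the nuclear receptor CAR. The next by p were Gsta2 at -1.68 (SE 0.34, adjusted p = 0.0919), Abcc3 at -1.86 (SE 0.39, adjusted p = 0.105) and Gsta4 at -0.57 (SE 0.12, adjusted p = 0.125), of which the glutathione transferases have near-identical copies that a probe may not tell apart. Without wild-type low-fat array 1, Abcc3 passed beside Cyp2a5, with 32 of 39 lower and 0.758% of all genes passing. With scan as a block Cbr1 did, with 31 of 39 lower and 0.644% of all genes passing. With no background correction 3 of the 39 passed, against 0.758% of all genes, with the scanner's processed signals 4, against 1.59%, and with the sample channel alone 6, against 2.23%, Cyp2a5 among them each time. The same list was lower in 28 of 39 on low fat (median -0.19) and in 26 of 39 on high fat (median -0.21).

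Among 15 partners and regulators of NRF2 turnover, 12 were lower as the mean of both diets, with a median of -0.16, and none passed, while 6 of 15 were lower with median centring, where 21.9% of all genes were lower. Bach1, the repressor that competes with NRF2 for the same elements, was -0.51 (SE 0.11, adjusted p = 0.138), and its relative Bach2 was 0.99 (SE 0.27, adjusted p = 0.239). Of 21 glutathione handling genes, 17 were lower with a median of -0.19 and none passed, and with median centring 7 of 21 were lower, again against 21.9% of all genes. With loess, the smallest p-values in this list were those of Glo1, the glyoxalase, at 0.58 (SE 0.15, adjusted p = 0.211) and Gpx4, which reduces lipid peroxides, at -0.55 (SE 0.15, adjusted p = 0.239). Thioredoxin and peroxiredoxin genes (9 of 15 lower, median -0.017), superoxide and peroxide removal (6 of 8 lower, median -0.29), haem and iron genes (12 of 17 higher, median 0.12), other NADPH sources (7 of 13 higher, median 0.10) and respiratory chain subunits (6 of 10 lower, median -0.14) had no member past the threshold either.

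Nnt's neighbours were read from the RefSeq gene table of GRCm38.p6, since the array files name no build. Within 2 Mb on either side it lists 60 genes, of which 22 are protein-coding, and 10 were tested. On high fat, Hmgcs1, the cytosolic enzyme that makes HMG-CoA for cholesterol synthesis, was at -1.68 (SE 0.32, unadjusted p = 0.000261, adjusted p = 0.216), and 4833420G17Rik was at -1.07 (SE 0.22, unadjusted p = 0.000467, adjusted p = 0.268). Both were lower where Nnt was higher, and none of the 10 passed the threshold in any comparison.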

How the data were processed

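Liver RNA was measured on 12 arrays, 3 per group. The deposited scanner files give mean and local background intensity in both colours and the scanner's log10 ratio of Cy5 over Cy3, per the file headers (Feature Extraction 9.1.3.1). Log2 differences of Cy3 over Cy5 fill the authors' deposited table, per the series' design text, and limma is named in the submitters' processing notes. Checked on 43379 spots, that table equals differences of group means of the scanner ratios within 5e-10, which settles its scale and direction.

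Intensities were corrected with normexp (offset 50) and normalised by loess within arrays in limma 3.58.1 (R 4.3.3), and 120 spots marked non-uniform were left out. A probe counted as measured when well above background in Cy3 on all 3 arrays of a group, which left 21479 probes, and each gene was read from whichever measured probe was brightest. One mean per group was fitted over all 12 arrays (lmFit, eBayes), with Benjamini-Hochberg adjustment over 14900 genes and a threshold of 0.05. Genes are named by rule: the 10 members in every comparison, Cyp1b1, the 3 genes most like a member, up to 4 genes by p in each wider list, and the tested neighbours of Nnt, of which the 2 named were chosen after their values were seen. Members and lists were chosen with earlier results of these data known, and Cyp1b1 was checked first. Tested on simulated data for null against wild-type on low fat (14869 genes), the fit recovered 52.2% of genes changed by 1 on the log2 scale, 89.6% of those changed by 2 and 98.5% of those changed by 4. The simulated noise was independent between arrays, without the shared deviation within scans. It called 166 genes, where the real comparison called 3 of 14900, so these shares do not give the power for the 10 genes.

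Replicate numbers were checked for pairing: deviations of same-numbered arrays had a median r of -0.0145 and a lowest of -0.58 over the 4 groups together. The numbers thus do not pair the arrays across all groups. In wild-type liver, however, each number is also 1 slide and 1 scan, and same-numbered arrays there had r of 0.33, 0.34 and 0.46. The main fit leaves that pairing out, and the fit with scan as a block takes it in. For the wider lists, other scalings, scan as a block and 1 array left out were added after seeing the data, as was leaving out arrays under the scan block for Nqo1. Alternatives covered background correction, normalisation, probe choice, filters, scan, slide, replicate number and each array left out. That there are 3 arrays a group, each a pool, limits the precision.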

Additional observations from a re-analysis of the deposited data

How the results depend on the processing

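Without leaving out an array, 826 of 880 values of single genes kept their direction and their side of the threshold. Of the rest, 3 newly passed and 51 changed sign, none of these 51 past the threshold on either side. Direction could not change with Aquantile, either other filter on dim probes, every measured probe tested, only the groups compared, the variance trend or the replicate block. These leave the members' differences as they are, so kept direction there is no support. The 3 that newly passed were Nqo1 with scan as a block, on low fat and over both diets, and Nfe2l2 with the sample channel alone over both diets, so the count of members past the threshold was 1 in place of 0 in each of these; over both diets it ran from 0 to 1 without each array in turn. The cause was not tested. With the scanner's processed signals, signs turned for null against wild-type on low fat Gclm 0.11, for null against wild-type on high fat Txnrd1 0.054, for null against wild-type over both diets Gclm 0.079 and Txnrd1 0.0062, for high against low fat in wild-type Nnt -0.034, for high against low fat in null Srxn1 -0.13, for the interaction Gclm -0.055. With no background correction, signs turned for high against low fat in null Srxn1 -0.023. With median centring and no background correction, signs turned for null against wild-type on low fat Gclm 0.19 and Txnrd1 0.31, for null against wild-type on high fat Nfe2l2 0.050, Keap1 0.13, Hmox1 0.032, Txnrd1 0.20 and Ephx1 0.13, for null against wild-type over both diets Gclm 0.24 and Txnrd1 0.25, for the interaction Txnrd1 -0.11. With median centring in place of loess, signs turned for null against wild-type on low fat Keap1 0.050, Gclm 0.42 and Txnrd1 0.55, for null against wild-type on high fat Nfe2l2 0.11, Keap1 0.17, Hmox1 0.086, Txnrd1 0.27, Srxn1 0.024 and Ephx1 0.19, for null against wild-type over both diets Keap1 0.11, Gclm 0.33, Hmox1 0.021, Txnrd1 0.41 and Ephx1 0.011, for high against low fat in wild-type Nqo1 0.072, for high against low fat in null Keap1 -0.068 and Srxn1 -0.054, for the interaction Gclm -0.17 and Txnrd1 -0.28. With the sample channel alone, signs turned for null against wild-type on high fat Keap1 0.13, Gclm -0.15, Hmox1 0.18 and Txnrd1 0.11, for high against low fat in wild-type Nqo1 0.26 and Ephx1 -0.11, for high against low fat in null Nfe2l2 -0.011, Txnrd1 0.10 and Srxn1 -0.059. With scan as a block, signs turned for null against wild-type on high fat Gclm -0.38. With slide as a block, signs turned for null against wild-type on high fat Gclm -0.36, for high against low fat in null Nfe2l2 -0.032, Txnrd1 0.028 and Srxn1 -0.41.

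Without each array in turn, 64 of 720 values of single genes changed sign. Leaving out an array outside the groups compared cannot change the difference, so the sign was fixed in those fits. Differences ran for null against wild-type on low fat -0.40 to 0.29 for Gclm and -0.32 to 0.19 for Txnrd1. They ran for null against wild-type over both diets -0.19 to 0.15 for Gclm and -0.17 to 0.087 for Txnrd1. They ran for high against low fat in wild-type -0.55 to 0.033 for Nfe2l2, -0.43 to 0.15 for Nqo1, -0.27 to 0.39 for Ephx1, -0.13 to 0.18 for Nnt and -0.23 to 0.35 for Gclm. They ran for the interaction -0.28 to 0.41 for Gclm, -0.057 to 0.75 for Hmox1, -0.20 to 0.31 for Txnrd1 and -0.064 to 1.20 for Ephx1. They ran for null against wild-type on high fat -0.34 to 0.10 for Keap1, -0.58 to 0.040 for Gclc, -0.39 to 0.37 for Ephx1, -0.46 to 0.14 for Hmox1, -0.17 to 0.20 for Txnrd1, -0.25 to 0.25 for Gclm and -0.31 to 0.055 for Nfe2l2. They ran for high against low fat in null -0.25 to 0.38 for Keap1, -0.32 to 0.64 for Gclc, -0.24 to 0.45 for Gclm, -0.0025 to 1.26 for Ephx1 and -0.20 to 0.28 for Srxn1.

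Over the 4 groups together, deviations did not follow the replicate numbers, which match the scan throughout in wild-type liver only. Of the arrays, 12 of 12 correlated best with an array of another group from their own scan, 5 with one of their own number. With the replicate number as a block, 0 members passed in any comparison, and 25 genes of all passed over both diets, against 43 without it. That count was 237 with the scanner's processed signals, 332 with the sample channel alone, 113 with no background correction, 1 with median centring, 2 with median centring and no background correction, 23 with no filter, 21 with the variance trend, 96 with scan and 16 with slide as a block, and 19 to 113 without each array. Aquantile leaves ratios as they are, and fitting only the groups compared gives no value over both diets or for the interaction. The Nqo1 probe and the last Nnt and Nfe2l2 probes lie near background, which limits their ratios.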
